A study of Homo sapiens with 6 samples.

Results

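The genes described here belong to the p53 pathway: 3 negative regulators of p53 (MDM2, MDM4 and PPM1D) and 27 targets of p53 that do not belong to the core apoptosis machinery. They were chosen by name, with earlier results of these data known, and all 30 matched an Ensembl ID among the 62703 in the deposited tables. H929 (NCI-H929) is an established human multiple myeloma line, derived from malignant plasma cells. The labels give the genotype of every sample as WT. Cells received 1 µM Mi-2, a small molecule that inhibits the MALT1 protease, or DMSO, its solvent, for 24 h, and 3 RNA-seq libraries were made for each treatment. Both groups come from the same line, and the labels do not state whether the 3 libraries of a treatment were grown as separate cultures. Every sample title ends in 'bio rep 1'. The p-values therefore set the difference between treatments against the spread among these libraries only, and that spread may be technical.

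The transcription factor p53 is kept scarce in unstressed cells because MDM2 attaches ubiquitin to it and MDM4 blocks its activity. DNA damage and other stresses release p53 from this control, and p53 then switches on genes that stop the cell cycle, repair DNA, alter metabolism or kill the cell, together with MDM2 itself, which closes a feedback loop.

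Total estimated counts ran from 21938893 to 23756745 in the Mi-2 libraries and from 19980689 to 22651557 in the DMSO libraries. Of the 8 plasma cell markers examined none was below 1 TPM in all libraries, and their summed level was 5039 to 5944 TPM in the Mi-2 libraries and 4125 to 5699 TPM in the DMSO libraries. The sum hides shifts in both directions. SDC1 (150.5 to 179 TPM with Mi-2, 233 to 296 with DMSO) and CD38 (32.5 to 50.9 and 55.3 to 107) were lower with Mi-2. IRF4 (611 to 673 and 437 to 545) and MZB1 (1627 to 2117 and 1064 to 1341) were higher. The groups were separate for these genes and overlapped for TNFRSF17, PRDM1, XBP1 and SLAMF7. The 4 B cell markers were below 1 TPM throughout, with CD22 at 0. Among markers of other cell types, CD3E (41.5 to 46.5 TPM with Mi-2 and 29.3 to 32.7 TPM with DMSO) and PECAM1 (69.4 to 102 TPM with Mi-2 and 58.9 to 74.9 TPM with DMSO) were detected. So was the epithelial keratin gene KRT18, at 13.2 to 17.8 TPM with Mi-2 and 5.95 to 8.6 TPM with DMSO, with the groups separate. The globin gene HBA1 had 0.37, 6.95 and 13.9 TPM in Mi-2 libraries 1, 2 and 3 and 0, 10.2 and 12.1 TPM in DMSO libraries 1, 2 and 3. HBB, another globin gene, had 1.88 to 3.77 TPM with Mi-2 and 0.55 to 2.54 TPM with DMSO. Both globin genes were lowest in library 1 and highest in library 3 of each treatment. S100A8 reached 1.41 TPM with Mi-2 and was at 0 with DMSO. NKG7 reached 0.63 TPM with Mi-2 and 1.25 TPM with DMSO, the other markers were below 1 TPM in every library, and CD3D, COL1A2 and PPBP were at 0 in all 6. Their part in the results below was not tested.

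The sequences around the start sites show how directly some of these genes carry the letters p53 binds. RefSeq windows of 300 bases (250 before the start and 50 after it, GRCh38.p14) were available for 26 of the 30 members, in 37 windows. They were searched for the p53 half-site, a palindromic consensus of 10 bases that reads the same on both strands, with no mismatch allowed, and for a full site of 2 half-sites at most 13 bases apart. A half-site was found in 6 of the 26 genes (AEN, DDB2, FDXR, PLK2, RPS27L and SESN1), and 8.06% of the 27305 genes with a window hold one. DDB2 alone among the members held a full site, as did 10 of all 35116 windows. The windows are given for DDB2, which holds the full site, for AEN, the member that fell, for FDXR, which holds the same letters as AEN, and for BTG2, a member that rose and held no match. They are written 5′ to 3′ on the strand of the gene, with half-sites in capitals. The DDB2 window shown is chr11:47214724-47215023 (plus strand), AEN chr15:88621090-88621389 (plus strand), FDXR chr17:74872945-74873244 (minus strand) and BTG2 chr1:203305269-203305568 (plus strand). DDB2 and FDXR each had another window, which held no half-site. TP53INP1, the other member that rose, had no window.
DDB2: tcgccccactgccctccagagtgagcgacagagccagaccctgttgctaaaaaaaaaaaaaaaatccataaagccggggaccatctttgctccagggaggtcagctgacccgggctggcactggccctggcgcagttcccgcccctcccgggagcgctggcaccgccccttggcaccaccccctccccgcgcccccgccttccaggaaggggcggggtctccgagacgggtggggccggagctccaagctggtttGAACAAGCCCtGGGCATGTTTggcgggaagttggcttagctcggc
AEN: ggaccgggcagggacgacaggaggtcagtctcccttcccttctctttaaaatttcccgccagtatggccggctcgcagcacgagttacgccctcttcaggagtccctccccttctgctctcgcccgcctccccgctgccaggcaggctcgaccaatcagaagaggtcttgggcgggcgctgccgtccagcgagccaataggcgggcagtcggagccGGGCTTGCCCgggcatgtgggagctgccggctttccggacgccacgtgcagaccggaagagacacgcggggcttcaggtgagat
FDXR: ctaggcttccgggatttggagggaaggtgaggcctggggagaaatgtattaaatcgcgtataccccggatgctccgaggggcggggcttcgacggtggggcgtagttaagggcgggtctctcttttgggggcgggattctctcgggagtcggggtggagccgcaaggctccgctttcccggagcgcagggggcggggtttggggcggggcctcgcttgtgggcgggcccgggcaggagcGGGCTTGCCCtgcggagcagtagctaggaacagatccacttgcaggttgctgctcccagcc
BTG2: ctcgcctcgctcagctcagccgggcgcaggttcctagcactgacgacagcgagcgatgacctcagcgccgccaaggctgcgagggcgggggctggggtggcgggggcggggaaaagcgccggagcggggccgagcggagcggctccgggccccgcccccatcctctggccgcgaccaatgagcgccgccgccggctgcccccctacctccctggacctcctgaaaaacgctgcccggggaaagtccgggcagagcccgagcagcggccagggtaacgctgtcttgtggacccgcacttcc
In DDB2 the half-sites GAACAAGCCC and GGGCATGTTT lie at positions 6 to 15 and 17 to 26 after the start, counted from 1 at the first transcribed base. In AEN the half-site GGGCTTGCCC ends 25 bases before the start, and in FDXR the same 10 letters end 2 bases before it. A match describes the letters only, and binding was not measured. A window without a match says nothing about sites outside it or sites with a mismatch.

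H929 cells held p53 target mRNAs over a wide range of levels in both treatments. By the deposited TPM, a level scaled for gene length and depth, 3 members averaged at least 100 TPM over the 6 libraries, 13 averaged 10 to 100 TPM, 13 averaged 1 to 10 TPM, and SPATA18, a mitochondrial quality control gene, had a single count in 1 library. The highest level was that of MDM2, the ubiquitin ligase of p53, with 252, 324 and 310 TPM in Mi-2 libraries 1, 2 and 3 and 259, 349 and 345 TPM in DMSO libraries 1, 2 and 3. That mean level was above those of 97.8% of the tested genes. BTG2, an inhibitor of cell proliferation, came next at 227 to 274 TPM with Mi-2 and 178 to 196 TPM with DMSO, and its range over the 6 libraries overlapped that of MDM2. CCNG1, a cyclin that recruits a phosphatase to MDM2, followed at 148 to 170 TPM over all libraries, below every BTG2 value and above every value of CDKN1A (67.5 to 131 TPM). Below CDKN1A, neighbours in the order overlapped in range, except that PLK3 (17.7 to 24.5 TPM) lay above FDXR (10.8 to 17.3 TPM) and SERTAD1 (2.14 to 2.98 TPM) above SPATA18. A same-strand transcript (ENSG00000256664) shares 439 exon bases with MDM2 but averaged 610 counts against 16020 for MDM2.

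**Figure D1:**
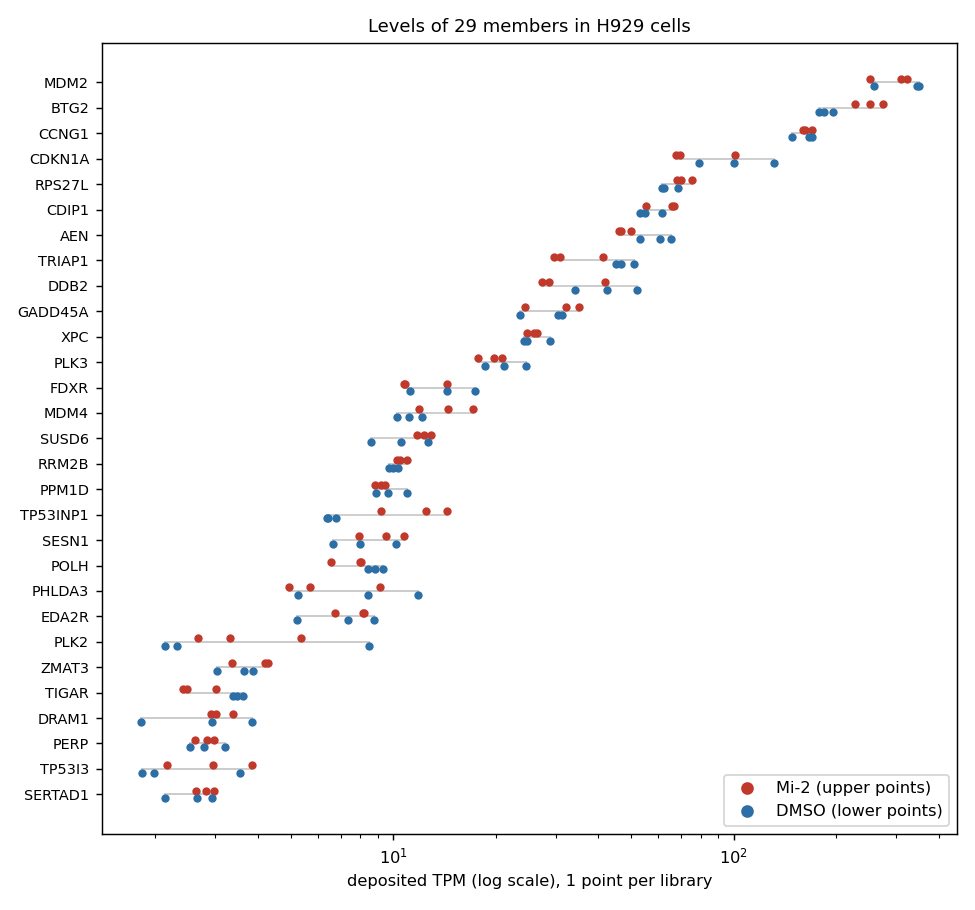
Deposited TPM (log scale) of 29 members in each library, with genes ordered by their mean and 1 point per library (Mi-2 above, DMSO below). MDM2, BTG2 and CCNG1 stand above 100 TPM in all 6 libraries, and SPATA18, at 0.01 TPM in 1 library and 0 in the others, is not drawn.

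With Mi-2, few p53 targets passed the test, and those that did went in both directions. Levels were compared with the quasi-likelihood F test of edgeR across all 16082 genes that passed a filter on low counts, with an adjusted p under 0.05 as the threshold, and the CPM values below are counts scaled to library size by TMM. Of the 29 members tested, 2 rose (TP53INP1 and BTG2) and 1 fell (AEN). Over all tested genes 11.0% were called, 5.02% higher and 6.03% lower, so 3 of 29 members is a share near the background. The median log2 fold change was 0.00 among the members, with 15 positive and 14 negative values, and 0.01 over all tested genes. The values ran from -0.47 (TRIAP1) to 0.88 (TP53INP1). The CPM ranges of the treatments were separate for 7 of the 29 members, against 32.3% of all tested genes. Calls among the members were few and some depended on single libraries: leaving out 1 library at a time gave 1 or 2 rises and 0 to 3 falls.

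**Figure D2:**
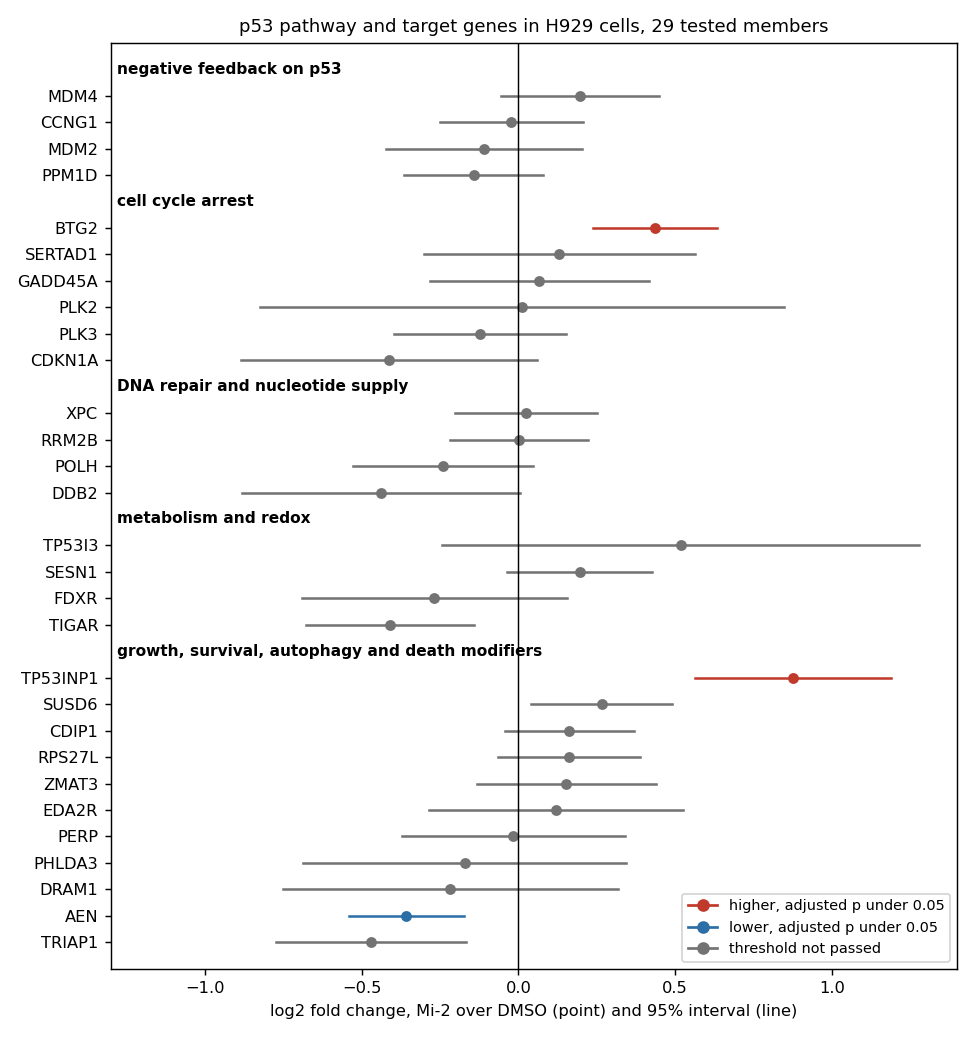
Log2 fold change (Mi-2 over DMSO, edgeR) of the 29 tested members with 95% intervals, grouped by role. TP53INP1 and BTG2 lie above 0 and AEN below it with an adjusted p under 0.05, and the other 26 did not pass the threshold.

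Negative regulators of p53 did not pass the threshold. MDM2 had 579, 778 and 718 CPM in Mi-2 libraries 1, 2 and 3 and 639, 731 and 867 CPM in DMSO libraries 1, 2 and 3. The groups overlapped, and the log2 fold change was -0.11 ± 0.14 (SE), with a 95% interval of -0.42 to 0.20, or 0.747-fold to 1.15-fold (edgeR adjusted p = 0.668). MDM4, which binds and silences p53, had 88.7, 88.0 and 68.6 CPM with Mi-2 and 72.5, 75.9 and 65.8 CPM with DMSO (0.20 ± 0.11, interval -0.06 to 0.45). PPM1D, the WIP1 phosphatase that removes activating phosphates from p53 and ATM, averaged 27.1 ± 1.44 CPM with Mi-2 and 29.9 ± 2.1 CPM with DMSO (SD, n = 3 each; log2 fold change -0.14 ± 0.10). CCNG1 averaged 254 ± 4.84 CPM with Mi-2 and 258 ± 32.5 CPM with DMSO (-0.02 ± 0.10). For none of these 4 genes did the 95% interval reach a 1.5-fold change.

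Among the genes grouped under cell cycle arrest, a label that was not tested for any of them, BTG2 rose. It had 577, 544 and 495 CPM in Mi-2 libraries 1, 2 and 3 and 389, 403 and 403 CPM in DMSO libraries 1, 2 and 3. Every Mi-2 library lay above every DMSO library, and the change was 1.35-fold (log2 0.43 ± 0.09, edgeR adjusted p = 0.0154). The call did not survive the loss of Mi-2 library 1 or of either of DMSO libraries 2 and 3 (edgeR adjusted p at most 0.0642), with the log2 fold change between 0.38 and 0.49 in the 6 fits that left a library out. CDKN1A, which encodes the cyclin-dependent kinase inhibitor p21 and is the best known p53 target, had 101, 103 and 146 CPM in Mi-2 libraries and 117, 140.4 and 209 CPM in DMSO libraries. Mi-2 library 3 lay above DMSO libraries 1 and 2, so the groups overlapped, and the lower mean with Mi-2 did not pass the threshold (-0.41 ± 0.21, edgeR adjusted p = 0.243). Its 95% interval was -0.89 to 0.06, or 0.541-fold to 1.04-fold. CDKN1A was called lower in 2 of 8 alternative settings, the replicate number as a block and no low-count filter (lowest edgeR adjusted p 0.0014). It was called in 0 of the 6 fits that left a library out. GADD45A, a stress protein that acts at the G2 checkpoint, averaged 26.5 ± 5.54 CPM with Mi-2 and 25.3 ± 2.42 CPM with DMSO (0.07 ± 0.16). The polo-like kinase gene PLK3 averaged 24.1 ± 1.19 CPM with Mi-2 and 26.2 ± 3.88 CPM with DMSO, and SERTAD1, a CDK4-binding protein, 4.46 ± 0.370 CPM with Mi-2 and 4.07 ± 0.644 CPM with DMSO. PLK2, another polo-like kinase gene, differed more between libraries of a treatment than between treatments. It had 8.98, 5.35 and 4.07 CPM in Mi-2 libraries 1, 2 and 3 and 9.79, 4.20 and 4.29 CPM in DMSO libraries 1, 2 and 3, with library 1 the highest of each group.

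No gene of DNA repair or nucleotide supply passed the threshold. DDB2, the damage-recognition subunit of nucleotide excision repair, holds the full p53 site in the window shown above. It had 32.1, 30.5 and 47.3 CPM in Mi-2 libraries 1 to 3 and 39.9, 46.0 and 63.0 CPM in DMSO libraries 1 to 3. Library 3 was the highest of each treatment, the groups overlapped, and the log2 fold change of -0.44 ± 0.20 gave an edgeR adjusted p of 0.19 (95% interval -0.88 to 0.01). DDB2 was called lower in 2 of 8 alternative settings, the replicate number as a block and no low-count filter (lowest edgeR adjusted p 0.0021). It was called in 0 of the 6 fits that left a library out. POLH, the polymerase that copies past ultraviolet damage, averaged 34.8 ± 4.54 CPM with Mi-2 and 41.0 ± 5.44 CPM with DMSO (-0.24 ± 0.13). It was called lower in 1 of 8 alternative settings, the replicate number as a block (edgeR adjusted p = 0.0454). XPC, which finds lesions for excision repair, was at 70.0 ± 4.40 CPM with Mi-2 and 68.9 ± 8.30 CPM with DMSO (0.03 ± 0.10), and some of its exon bases overlap those of LSM3 and XPC-AS1 on the other strand. RRM2B, the p53-inducible ribonucleotide reductase subunit, averaged 34.9 ± 3.01 CPM with Mi-2 and 34.9 ± 1.92 CPM with DMSO (0.00 ± 0.10, interval -0.22 to 0.22).

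Of the genes of metabolism and redox control, TIGAR came closest to the threshold. This fructose bisphosphatase, which diverts sugar from glycolysis, had 17.0, 21.1 and 17.2 CPM in Mi-2 libraries 1, 2 and 3 and 23.3, 24.2 and 25.8 CPM in DMSO libraries 1, 2 and 3. All Mi-2 values lay below all DMSO values, but the change of -0.41 ± 0.12 had an edgeR adjusted p of 0.0556. DESeq2 placed it under the threshold (adjusted p = 0.0301), as did the fit without Mi-2 library 2 (0.0352), and limma on log2(TPM + 1) gave 0.243. It also passed with no low-count filter and with the replicate number as a block (lowest edgeR adjusted p 0.0191). With DESeq2 these made 3 of 8 alternative settings. TIGAR shares 1711 exon bases with ENSG00000285901 on the same strand, which averaged 53.8 counts against 475 for TIGAR. SESN1, a sestrin that restrains mTORC1, averaged 32.1 ± 1.38 CPM with Mi-2 and 28.1 ± 2.80 CPM with DMSO (0.20 ± 0.10, adjusted p = 0.262). FDXR, a mitochondrial ferredoxin reductase, has a window shown above. It had 14.8, 15.9 and 20.0 CPM with Mi-2 and 16.1, 18.6 and 26.3 CPM with DMSO (-0.27 ± 0.19). TP53I3, a quinone oxidoreductase, was near the lower end at 3.03 ± 0.796 CPM with Mi-2 and 2.11 ± 0.905 CPM with DMSO, and its interval was wide (-0.24 to 1.28).

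The largest change among the members was the rise of TP53INP1, whose protein assists p53 in the nucleus and promotes autophagy in the cytoplasm. It had 66.5, 59.0 and 44.0 CPM in Mi-2 libraries 1, 2 and 3 and 29.7, 30.7 and 31.9 CPM in DMSO libraries 1, 2 and 3. The Mi-2 libraries varied more than the DMSO libraries and all lay above them, for a 1.84-fold difference (log2 0.88 ± 0.14, 95% interval 0.56 to 1.19, edgeR adjusted p = 0.00665). TP53INP1 kept its call with any library left out (highest adjusted p 0.0336, without DMSO library 2).

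AEN, an exonuclease that takes part in p53-driven cell death, fell. It had 97.0, 109 and 106 CPM in Mi-2 libraries 1, 2 and 3 and 132, 138 and 129.6 CPM in DMSO libraries 1, 2 and 3. The groups were separate and the change was 1.28-fold lower (-0.36 ± 0.08, edgeR adjusted p = 0.0239). This call was lost without Mi-2 library 1 or without any one of the DMSO libraries (adjusted p up to 0.104), and by limma on log2(TPM + 1) (0.118). TRIAP1, a small mitochondrial protein that holds back apoptosis, had a larger difference that did not pass. It had 22.1, 31.9 and 24.2 CPM in Mi-2 libraries 1, 2 and 3 and 34.8, 37.5 and 36.0 CPM in DMSO libraries 1, 2 and 3 (-0.47 ± 0.14, edgeR adjusted p = 0.0541). TRIAP1 passed with DESeq2 (0.0161), with limma-voom (0.0461) and without Mi-2 library 2 (0.0209). It also passed with no low-count filter and with the replicate number as a block (lowest edgeR adjusted p 0.0025). These made 4 of 8 alternative settings and 1 of the 6 fits that left a library out.

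The remaining members with roles in growth, survival, autophagy or cell death did not pass. SUSD6, a membrane protein that restrains growth, had 54.4, 54.8 and 49.9 CPM with Mi-2 and 48.9, 44.6 and 38.9 CPM with DMSO. The groups were separate (0.27 ± 0.10, edgeR adjusted p = 0.122). SUSD6 was called higher in 1 of 8 alternative settings, the replicate number as a block (edgeR adjusted p = 0.0287). CDIP1, a proapoptotic membrane protein, averaged 125 ± 10.3 CPM with Mi-2 and 112 ± 7.36 CPM with DMSO (0.16 ± 0.09). RPS27L, a close relative of the ribosomal protein gene RPS27 with which it could share reads, averaged 46.0 ± 3.53 CPM with Mi-2 and 41.2 ± 3.97 CPM with DMSO (0.16 ± 0.10). ZMAT3, an RNA-binding zinc finger protein, was at 25.0 ± 2.38 CPM with Mi-2 and 22.5 ± 2.94 CPM with DMSO, and EDA2R, a receptor of the TNF receptor family, at 21.6 ± 2.74 CPM with Mi-2 and 19.9 ± 4.86 CPM with DMSO. PHLDA3, an inhibitor of AKT, had 9.48, 7.42 and 11.9 CPM with Mi-2 and 7.46, 12.6 and 12.3 CPM with DMSO (-0.17 ± 0.23). PERP, a membrane protein of desmosomes, averaged 9.72 ± 0.824 CPM with Mi-2 and 9.84 ± 1.71 CPM with DMSO, and DRAM1, a lysosomal membrane protein of autophagy, 6.24 ± 0.648 CPM with Mi-2 and 7.23 ± 2.38 CPM with DMSO. DRAM1 was lower with Mi-2 by counts (-0.22 ± 0.24) and higher on the log2(TPM + 1) scale (0.12), within its error on both.

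Several members differed as much between libraries of a treatment as between treatments. CDKN1A, FDXR and POLH were lowest in library 1 and highest in library 3 of both treatments. The order was taken from CDKN1A, so CDKN1A matches it by construction and is 1 of the 3 of 29 members counted. Of all tested genes 6.37% had that order (a comparison chosen after the values were seen). DDB2 was highest in library 3 of both treatments but lowest in Mi-2 library 2. CDKN1A spanned 101 to 146 CPM within the Mi-2 libraries and 117 to 209 CPM within the DMSO libraries.

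**Figure D3:**
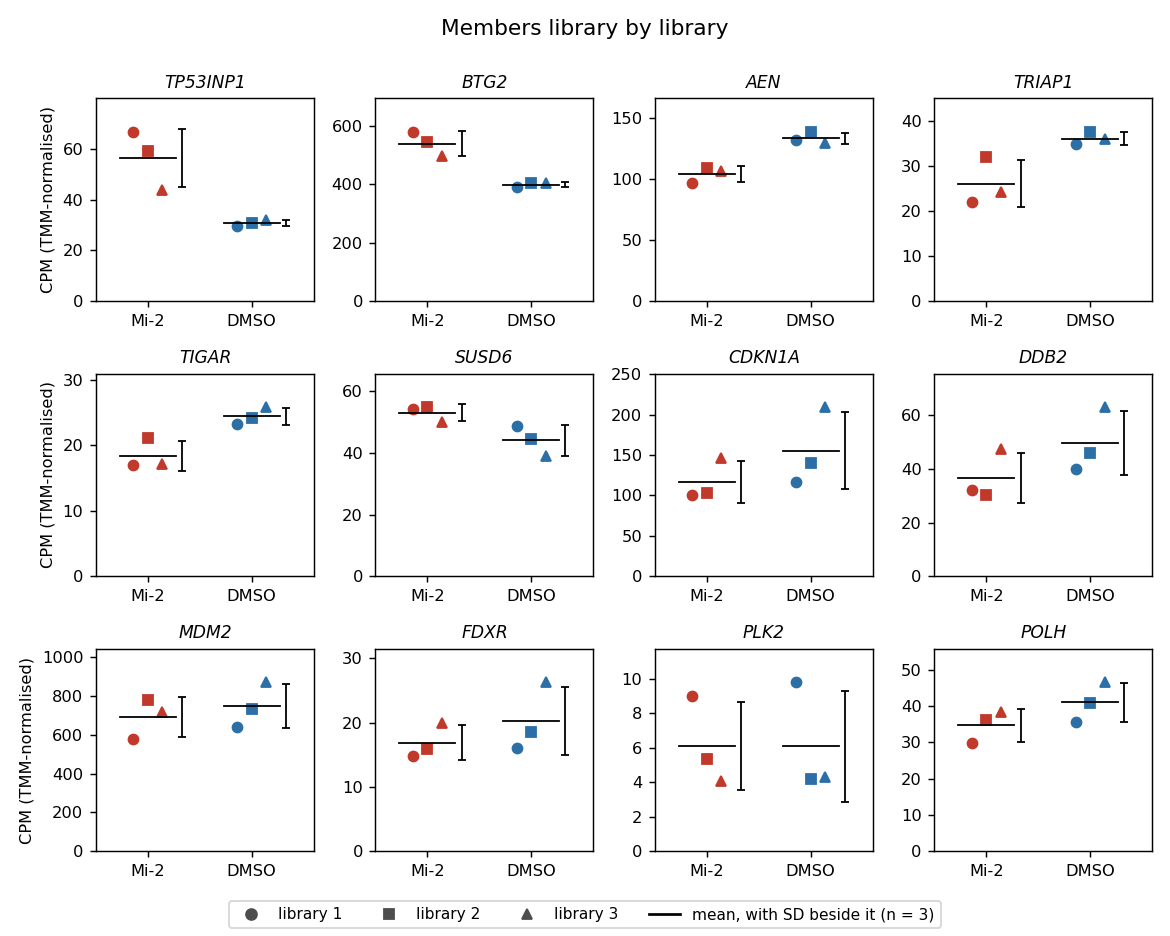
CPM (TMM-normalised, axis from 0) of 12 members in each library, Mi-2 left and DMSO right, with the mean and SD of 3 libraries. TP53INP1 and BTG2 are higher and AEN lower in every Mi-2 library than in any DMSO library, while CDKN1A, DDB2, MDM2, FDXR, PLK2 and POLH overlap between treatments.

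Among the genes that act on p53, 2 kinases that signal DNA damage to it fell. CHEK1, the checkpoint kinase that acts when replication forks stall, had 53.1, 57.9 and 83.2 CPM in Mi-2 libraries 1, 2 and 3 and 124, 125 and 142 CPM in DMSO libraries 1, 2 and 3. It was 2.01-fold lower with Mi-2 (-1.01 ± 0.15, edgeR adjusted p = 0.00589), with or without any single library, and shares 80 exon bases with STT3A on the same strand, which averaged 21850 counts against 2149 for CHEK1. CHEK2, which ATM activates after double-strand breaks, averaged 14.3 ± 3.45 CPM with Mi-2 and 22.7 ± 2.66 CPM with DMSO (-0.67 ± 0.18, edgeR adjusted p = 0.0402), and its call needed both of Mi-2 libraries 1 and 2 and both of DMSO libraries 2 and 3 (0.126 at most when any of these was left out). It shares 301 exon bases with HSCB on the opposite strand, which averaged 250.8 counts against 409.7 for CHEK2. CHEK1 and CHEK2 were the only calls among 25 tested genes of p53 and its regulators, against 11.0% of all tested genes. ATM averaged 232 ± 25.6 CPM with Mi-2 and 222 ± 31.3 CPM with DMSO, and USP7, which removes ubiquitin from MDM2 and p53, 274 ± 3.95 CPM with Mi-2 and 307 ± 8.97 CPM with DMSO (-0.17 ± 0.08, edgeR adjusted p = 0.202). CDKN2A, whose ARF product inhibits MDM2, averaged 49.6 ± 13.2 CPM with Mi-2 and 43.9 ± 3.83 CPM with DMSO (0.17 ± 0.17, edgeR adjusted p = 0.574). TP73 did not pass the filter, and TP63 was below 1 CPM on average in both groups.

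Apoptotic targets of p53 showed falls in 2 of the 13 tested (15.4%, against 6.03% of all tested genes) and no rise, too few genes to read as a result about the list. PMAIP1, which encodes the BH3-only protein NOXA, had 3.45, 4.18 and 2.56 CPM in Mi-2 libraries 1, 2 and 3 and 6.61, 10.1 and 8.95 CPM in DMSO libraries 1, 2 and 3. It was 2.52-fold lower with Mi-2 (-1.33 ± 0.23, edgeR adjusted p = 0.00885) and kept its call with any library left out. PIDD1, a scaffold for caspase-2 activation, averaged 16.5 ± 3.04 CPM with Mi-2 and 25.1 ± 0.796 CPM with DMSO (-0.61 ± 0.14, edgeR adjusted p = 0.0233). Its call held in only 1 of the 6 fits that left a library out, the one without Mi-2 library 3, and it shares 107 exon bases with RPLP2, a far more abundant gene on the opposite strand. The BH3-only gene BBC3 (PUMA) had 3.36, 3.71 and 7.76 CPM with Mi-2 and 2.44, 7.43 and 4.93 CPM with DMSO, and BAX averaged 45.7 ± 4.09 CPM with Mi-2 and 51.7 ± 6.36 CPM with DMSO. BBC3 and BAX, like the death receptor gene TNFRSF10B (93.5 ± 13.7 CPM with Mi-2 and 108 ± 22.9 CPM with DMSO), lie outside the rule for naming genes and were chosen after their values were seen.

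Among 40 further p53 targets that were tested, 2 rose (5.0%, against 5.02% of all tested genes) and 5 fell (12.5%, against 6.03%). The median log2 fold change was -0.05, against 0.01 over all tested genes. ORAI3, a subunit of store-operated calcium channels, had 23.3, 14.8 and 21.6 CPM in Mi-2 libraries 1, 2 and 3 and 9.84, 7.56 and 8.71 CPM in DMSO libraries 1, 2 and 3. It rose 2.29-fold (1.19 ± 0.18, edgeR adjusted p = 0.00607). ABHD4, a lipid hydrolase, rose 1.32-fold (81.3 ± 2.36 CPM with Mi-2 and 61.5 ± 4.25 CPM with DMSO, edgeR adjusted p = 0.0164), a call that needed Mi-2 library 1 and both of DMSO libraries 2 and 3 (0.0712 at most when any of these was left out). SLC12A4, a potassium chloride cotransporter, fell 2.18-fold (41.4 ± 6.86 CPM with Mi-2 and 90.0 ± 7.92 CPM with DMSO, edgeR adjusted p = 0.00209), and shares 336 exon bases with LCAT on the same strand, which averaged 97.9 counts against 1443 for SLC12A4. PCNA, the sliding clamp of DNA replication, fell (61.8 ± 12.4 CPM with Mi-2 and 113 ± 9.25 CPM with DMSO, log2 -0.88 ± 0.14), as did E2F7, a repressor of the E2F family (7.58 ± 0.559 CPM with Mi-2 and 12.9 ± 0.939 CPM with DMSO, -0.77 ± 0.13), and PTP4A1, a tyrosine phosphatase (163 ± 5.22 CPM with Mi-2 and 235 ± 10.1 CPM with DMSO, -0.53 ± 0.08). The remaining fall was in FBXO22, named after its values were seen (-0.36 ± 0.09, edgeR adjusted p = 0.0382). GDF15, a secreted protein widely used as a p53 readout, did not pass the filter, with 0 to 5 counts in the Mi-2 libraries and 1 to 4 in the DMSO libraries.

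A further list, also chosen with earlier results of these data known, holds genes that p53 can lower indirectly. It does so when p21 allows the DREAM repressor complex to form on cell cycle promoters. CDKN1A, the gene of p21, did not pass the threshold (-0.41 ± 0.21, edgeR adjusted p = 0.243). The listed genes were mostly lower with Mi-2, and what lowered them was not tested. Of 28 tested, 15 fell (53.6%, against 6.03% of all tested genes) and none rose, all 28 values were negative, and the median log2 fold change was -0.53, against 0.01 over all tested genes. CDC25A, a phosphatase that activates cyclin-dependent kinases, averaged 29.3 ± 8.11 CPM with Mi-2 and 63.2 ± 7.27 CPM with DMSO (-1.11 ± 0.18, edgeR adjusted p = 0.00783). E2F1, the activator of S phase genes, averaged 44.5 ± 7.42 CPM with Mi-2 and 89.3 ± 9.38 CPM with DMSO (-1.0 ± 0.13, edgeR adjusted p = 0.00314). When Mi-2 library 1 was left out, 7 genes of the list fell, and 302 of all 16481 tested genes. Without Mi-2 library 2 the falls were 8 in the list and 740 of 16468 genes. Without DMSO library 2 they were 8 and 390 of 16463, and without DMSO library 3 they were 8 and 418 of 16535. Leaving out Mi-2 library 3 gave 23 in the list and 866 of 16369 genes.

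**Figure D4:**
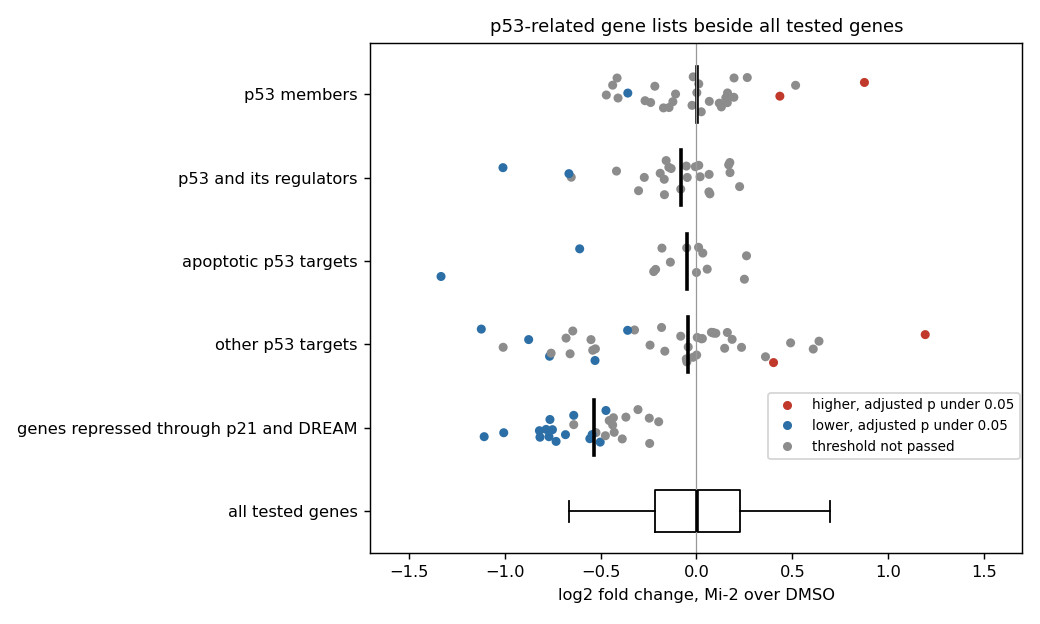
Log2 fold changes (Mi-2 over DMSO) of the tested genes of 5 lists, 1 point per gene with the list's median as a bar, above a box of all 16082 tested genes (quartiles, whiskers from the 5th to the 95th percentile). The members centre on 0.00 and the list labelled genes repressed through p21 and DREAM on -0.53. The label names the list, and that route was not tested.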

How the data were processed

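RNA sequencing libraries from total RNA of H929 cells were read as pairs on a NovaSeq sequencer, per the labels' protocols. The submitters' processing notes name fastp 0.19.5, HISAT2 2.1.0, StringTie 2.1.0, RSEM 1.3.3 and GRCh38.p13, without roles. How RNA was selected, and whether counting used strand, is not stated in any source used here. The authors deposited a table of estimated counts per gene, partly fractional and not scaled between libraries, and a table of TPM values (a level scaled for gene length and depth). Estimated counts divide reads among similar genes, so values of such genes are uncertain.

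Counts were rounded, filtered with filterByExpr (minimum count 10, minimum total 15), scaled by TMM and tested in edgeR 4.0.16 under R 4.3.3 (quasi-likelihood F test), Mi-2 against DMSO in all 6 libraries. P-values were adjusted by Benjamini-Hochberg over all 16082 genes. A standard error is the log2 fold change divided by the root of its F, and 95% intervals use the degrees of freedom of the fit. The common biological coefficient of variation was 14.2%. DESeq2 1.42.0, limma 3.58.1 and other settings were alternatives. Chi-square tests of counts between libraries of a treatment gave 15.0 to 21.1 per degree of freedom, so none was a copy. Fits to TPM used log2(TPM + 1) or log2(TPM + 0.1), on which scale low genes change less than in fact. The edgeR, DESeq2 and limma-voom tests were tested on simulated data, the TPM fits were not.

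Symbols were found for 62625 IDs in a name table and for 72 more in GENCODE 29. Exon overlaps came from GENCODE 29 and promoter windows from RefSeq. The members and lists were chosen with earlier results of these data known. Named genes were all 30 members, genes of p53 and its regulators, and up to 4 called genes per other list and direction with a mean of at least 1 TPM. The result of 1 listed gene is not reported here, though the counts of its list include it.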

Additional observations from a re-analysis of the deposited data

How the results depend on the processing

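Depth, 3 libraries per treatment and a coefficient of variation of 14.2% limit what could be called. Scaling by RLE moved no count past 1.5 times. Among the members, falls numbered 3 with DESeq2 and 2 with limma-voom, where 1282 and 978 of all 16082 genes fell. Member falls numbered 5 without the low-count filter, 0 on either TPM scale, and 0 to 3 with 1 library left out (rises 1 to 2). Without a TPM filter, limma on log2(TPM + 1) called 0 of 31463 genes, so 0 in every list, with 3808 at an unadjusted p under 0.05. Without the low-count filter, falls numbered 4 (regulators), 8 (other targets) and 24 (DREAM genes), and of all 31459 genes 1221 rose and 1541 fell. With TPM + 1 and TPM + 0.1, 1 apoptotic target fell, and 1 other target rose and 3 fell. Of all 13981 genes 229 rose and 381 fell with TPM + 1, 249 and 398 with TPM + 0.1, and both medians were 0.0.

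Leaving out 1 library gave 216 to 715 rises and 302 to 866 falls over all genes, with medians of -0.001 to 0.009. Falls were 1 to 2 for regulators (median -0.141 to -0.068), 1 to 2 for apoptotic targets (median -0.156 to -0.045) and 7 to 23 for DREAM genes, and other targets had 1 to 3 rises.

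Same-numbered libraries 1, 2 and 3 correlated at 0.409, 0.059 and 0.261 in their deviations from the group means. Libraries of unlike number correlated at -0.326 (Mi-2 library 1 and DMSO library 3) to 0.079 (Mi-2 library 2 and DMSO library 3). Mi-2 libraries 1 and 3 correlated best with the DMSO library of their own number, and Mi-2 library 2 did not. The labels do not say what the numbers mark, so they do not establish pairs. With the replicate number as a block, 3 of the 29 tested members rose and 6 fell, while of all 16082 genes 1791 rose and 2035 fell. Under the block 4 regulators, 9 other targets and 27 DREAM genes fell. CDKN1A, DDB2, TIGAR and TRIAP1 were called lower under the block and without the low-count filter. POLH was called lower and SUSD6 higher under the block only.

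Signs turned only for 10 members with changes inside their error. RRM2B was -0.001 with limma-voom, -0.006 without the low-count filter, and -0.071 to 0.051 with a library left out. XPC was -0.006, -0.007 and -0.006, CCNG1 0.018, 0.019 and 0.018, and DRAM1 0.121, 0.172 and 0.121 with TPM + 1, TPM + 0.1 and TPM + 1 without a TPM filter. With a library left out, XPC ran from -0.03 to 0.122, CCNG1 -0.117 to 0.056, MDM2 -0.208 to 0.007, GADD45A -0.047 to 0.228, PLK2 -0.367 to 0.528, PLK3 -0.207 to 0.004, EDA2R -0.067 to 0.257 and PERP -0.123 to 0.121. The cause of these changes was not tested.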
